A study of Homo sapiens with 24 samples.

Results

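The genes described here are 10 heat shock chaperone genes, taken by symbol from a fixed list of cytosolic and mitochondrial heat shock genes, out of 58381 gene IDs in a table of read counts. They are HSPA1A, HSPA1B, HSPA8, HSPH1, HSP90AA1, DNAJB1, HSPB1, HSPD1, HSPE1 and BAG3. All 10 symbols matched 1 protein-coding gene each, and all 10 passed the filter on low counts that left 20820 genes for testing. The counts come from CLS-439, T24, TCC-SUP and 5637, labelled as human bladder cancer lines, with and without mitomycin C (MMC), a drug that crosslinks DNA. Untreated cells (labelled NT) received no drug. In the treated groups 75 µM MMC was kept on the cells for 1 h, and total RNA was extracted 15 h later. The tag of the treated samples reads MCC and was taken to mean MMC, the only drug that the protocol names. The 24 libraries form 8 groups of 3, and in each group they carry the numbers 1, 3 and 4 and are called biological replicates. Differences between lines rest on 1 cell line on each side and are not replicated over tumors.

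Heat shock proteins are molecular chaperones, which bind unfolded protein and help it to fold. HSP70 proteins do so in cycles of ATP hydrolysis that J-domain proteins start and nucleotide exchange factors end, HSP90 acts later on kinases and receptors, and the mitochondrial chaperonin folds proteins inside mitochondria. Heat shock factor HSF1 switches the stress-induced members on by binding heat shock elements, which are inverted repeats of the unit GAA and its complement TTC, while other members are made at high level in unstressed cells.

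Some facts of the whole table bear on these genes. Library totals ran from 13791428 to 28821665 counted reads. CLS-439 stood apart from the other lines. Genes of the mitochondrial genome took 0.0238% to 0.0283% of its reads and processed pseudogenes 2.75% to 3.05%, while the 18 libraries of the other lines had 3.21% to 7.40% and 0.143% to 0.228%. Treated library 1 stood apart from treated libraries 3 and 4, with a chi-square per gene of 129 and 72.5 in T24 (21.4 between libraries 3 and 4), 77.1 and 50.4 in 5637 (23) and 19.9 and 18.2 in CLS-439 (4.84). In TCC-SUP it was 52.4 and 32.8 (38.2), so library 1 did not stand apart from both others there. Among untreated libraries of a group the highest value was 46.9, between libraries 1 and 4 of T24. Responses are also given without treated library 1 of T24, 5637 and TCC-SUP, a choice made after the data had been seen. That choice does not follow these values, as it drops library 1 of TCC-SUP and keeps that of CLS-439. Markers of bladder epithelium were uneven. The basal keratin KRT5, the cadherin CDH1 and TP63 were at 1180, 174 and 122 CPM (read counts relative to the TMM-scaled size of the library) in untreated 5637, but KRT5 and TP63 were at most at 2.28 CPM in the other lines. Untreated T24 expressed KRT7 at 2900 CPM, and TCC-SUP the fibroblast collagen COL1A1 at 4300 CPM beside KRT18 at 1950 CPM. Other markers went the other way. Untreated T24 had EPCAM at 2.9 and CDH1 at 0.0129 CPM, and untreated TCC-SUP the mesenchymal VIM at only 10.2 CPM. Untreated CLS-439 also had COL1A1 (1700 CPM), with VIM at 1450, FN1 at 1560 and KRT7 at 1790 CPM, and VIM was at 701 CPM in untreated 5637. In untreated CLS-439 the fibroblast markers COL1A2, COL3A1, DCN and LUM were at most at 0.257 CPM. Its epithelial markers KRT19, CDH1 and GATA3 were at most at 2.10 CPM. Untreated TCC-SUP had KRT7 at 32.6 and EPCAM at 5.48 CPM. The immune marker PTPRC was at 30.0 CPM in untreated TCC-SUP and at most at 0.101 CPM in the other untreated lines. The uroplakins UPK1B, UPK2 and UPK3A, made by differentiated urothelium, reached at most 6.60 CPM on average in any untreated line.

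The promoter sequences show where exact paired units of the recognition pattern of heat shock factors occur, and 7 are printed for that reason. RefSeq sequences (build GRCh38.p14) of the 250 bases before each gene start were searched for paired units, GAANNTTC or TTCNNGAA, each of which reads the same on both strands. All 10 genes had such a sequence, with 14 windows in all because 3 genes have several starts. At least 1 pair was found in 7 of the 10 genes (7 of 14 windows), and in 11.6% of 35116 windows of the same length over all genes. A run of 3 alternating units, in which the paired motifs overlap and follow each other 5 bases on, was found in HSPA8, HSP90AA1 and HSPD1, and in 0.441% of all windows. HSPH1, HSPE1 and BAG3 had no exact pair in these windows, which says nothing of inexact units or of elements elsewhere. The HSPD1 stretch printed below lies just ahead of the HSPE1 window (chromosome 2, 197500129 to 197500378). Stretches outside annotated exons, or the 28 bases around the 3 units where an exon of a longer transcript covers the element, read 5′ to 3′ on the gene's strand as follows, with the GAA and TTC units of each pair in capitals.
HSPA1A (chr6:31815344-31815463, plus strand): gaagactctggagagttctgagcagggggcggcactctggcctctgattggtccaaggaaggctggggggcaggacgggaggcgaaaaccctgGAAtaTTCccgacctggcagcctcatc
HSPA1B (chr6:31827551-31827670, plus strand): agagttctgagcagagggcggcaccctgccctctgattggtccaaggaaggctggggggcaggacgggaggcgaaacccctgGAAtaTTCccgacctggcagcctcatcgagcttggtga
DNAJB1 (chr19:14518421-14518540, minus strand): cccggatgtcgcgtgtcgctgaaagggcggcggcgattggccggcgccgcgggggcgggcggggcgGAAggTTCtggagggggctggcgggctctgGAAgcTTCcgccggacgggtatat
HSPB1 (chr7:76302423-76302528, plus strand): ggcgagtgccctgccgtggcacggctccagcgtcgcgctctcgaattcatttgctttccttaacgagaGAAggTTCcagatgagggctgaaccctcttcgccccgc
HSPA8 (chr11:123062172-123062199, minus strand): cgggccccTTCtgGAAggTTCtaagata
HSP90AA1 (chr14:102087113-102087140, minus strand): gagggttcTTCcgGAAggTTCgggaggc
HSPD1 (chr2:197500061-197500088, minus strand): attTTCtgGAAagTTCtgGAAccgagcg

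Counted from the RefSeq start, the pair began at 106 bases before HSPA1A and at 105 before HSPA1B, in nearly the same surrounding sequence. The promoters of both genes also hold CCAAT, found in 32.0% of all windows, and TATAAA, found in 10.7%. In DNAJB1 there were pairs 77 and 47 bases before a start, and in HSPB1 there was 1 pair at 182 bases. HSPA8 held alternating units at 230 and again at 55 bases before its start (the stretch printed), HSP90AA1 at 88 bases before 1 of its starts, and HSPD1 at 245 bases before 1 of its starts. These matches are a description of sequence and were not tested for binding.

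Untreated cells already differed in these genes. In read counts scaled by exon length and library size (RPKM), the scale on which genes can be compared, HSPA8 and HSP90AA1 ranked above the other 8 members in every line. HSPA8, the HSP70 made without stress, had 788 ± 122 RPKM (SD, n = 3) in T24, 687 ± 55.6 in 5637, 415 ± 20.04 in CLS-439 and 554 ± 105 in TCC-SUP. HSP90AA1, the stress-inducible cytosolic HSP90, had 774 ± 245, 697 ± 85.2, 409 ± 10.2 and 298 ± 44.5 RPKM in the same lines. Taken one by one, the inducible HSP70 genes were among the lowest 3 members in every line. They share much sequence, and how reads that match both were counted is not given, so their ranks carry that limit. HSPA1B had 13.3 ± 0.947 RPKM in T24 and 18.9 to 23.4 RPKM in the other lines, and HSPA1A had 16.2 ± 0.862 in T24, 0.834 ± 0.258 in 5637, 11.4 ± 1.66 in CLS-439 and 0.610 ± 0.146 in TCC-SUP.

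By edgeR's quasi-likelihood test, untreated levels differed among the 4 lines for 9 of the 10 genes, all but BAG3, against a background of 93.3% of all genes tested. Between pairs of lines the test called 5 of 10 for T24 and 5637 (background 46.6%), 6 for T24 and TCC-SUP (51.3%), 7 for T24 and CLS-439 (72.3%), 7 for 5637 and TCC-SUP (56.6%), 7 for 5637 and CLS-439 (73.7%) and 5 for TCC-SUP and CLS-439 (77%). The members' shares lie on both sides of these backgrounds, and nothing is read from them about the list as a whole. HSPA8 had the order T24, 5637, TCC-SUP, CLS-439, from 3819 ± 589 to 2010 ± 97.2 CPM, and only its last step was called (adjusted p = 0.0259), a call lost without untreated TCC-SUP library 3 (0.107) or untreated CLS-439 library 1 (0.0785) or 3 (0.0516). HSP90AA1 had the order T24, 5637, CLS-439, TCC-SUP, from 4061 ± 1285 to 1564 ± 234 CPM, and only its middle step was called (5637 above CLS-439, adjusted p = 0.00605). The plot of levels by library shows each gene.

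**Figure D1:**
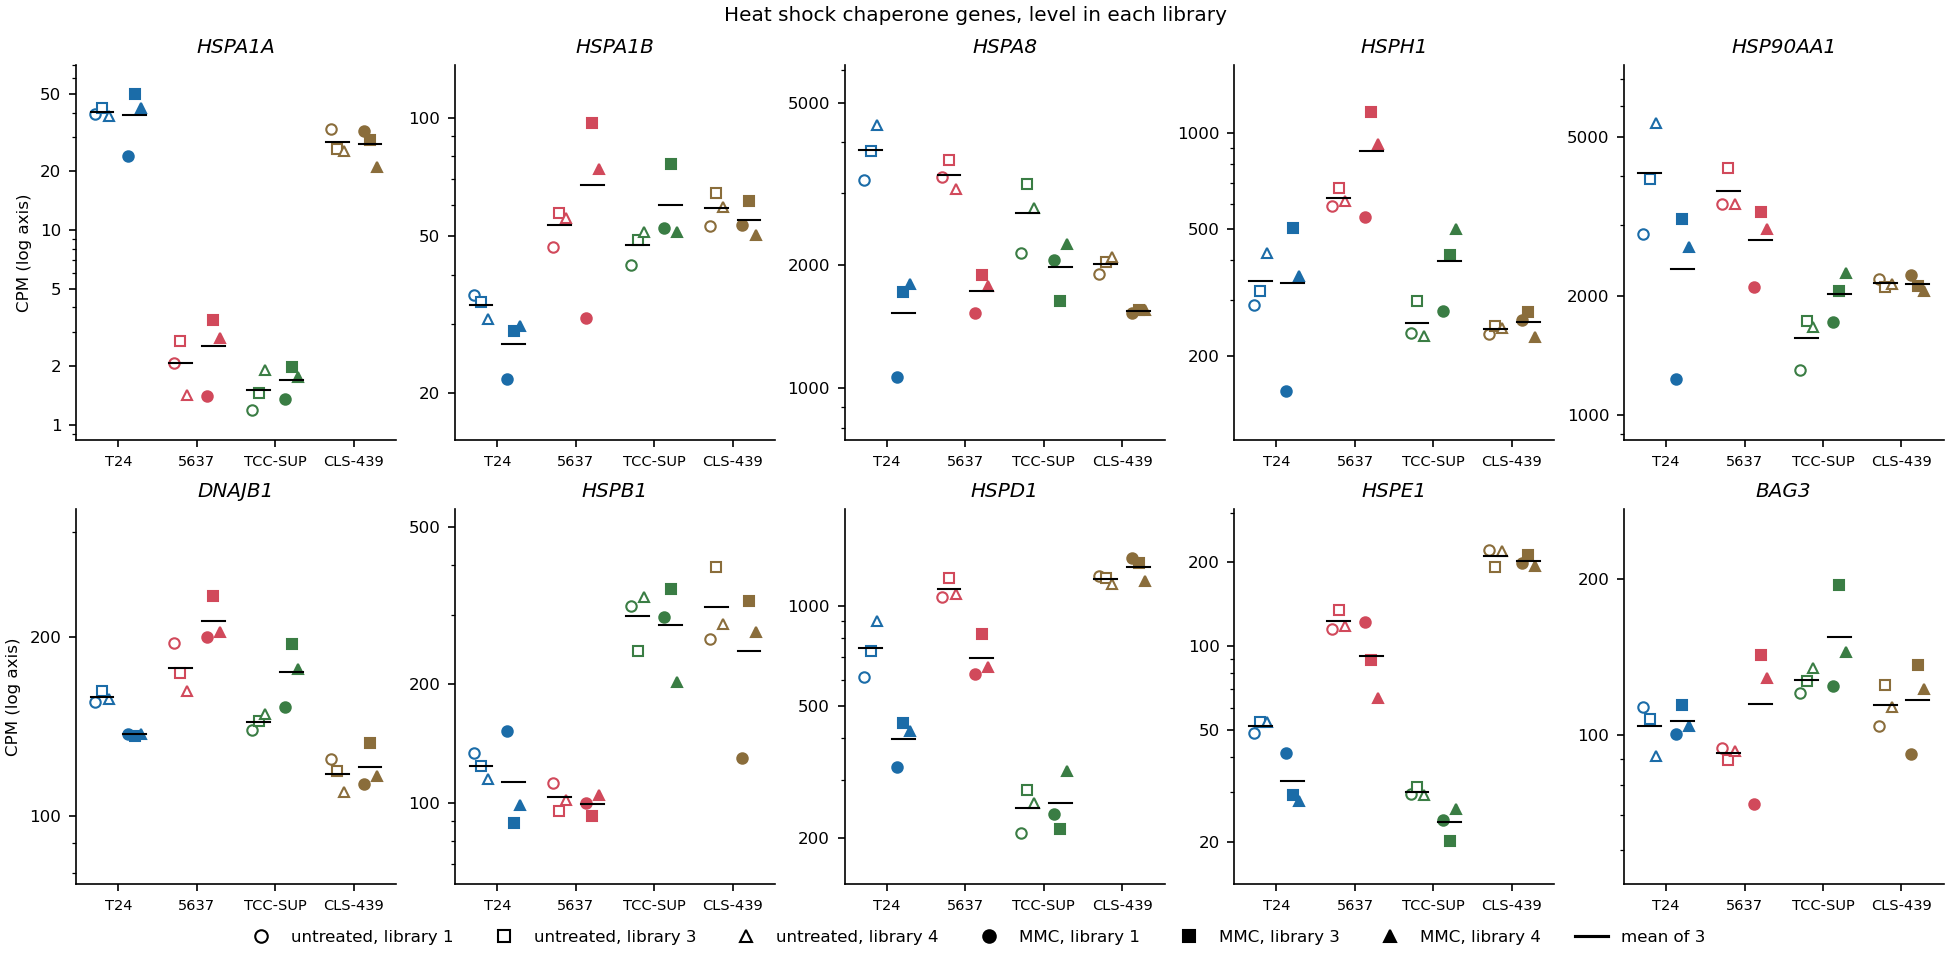
CPM (log axis) of the 10 genes in all 24 libraries, with 1 panel per gene, untreated libraries open, MMC-treated libraries filled, the marker shape giving the library number and the bar the mean of 3. HSPA8 in treated T24 (1064 to 1799 CPM) lies below untreated T24 (3233 to 4411 CPM), and HSPA1A in 5637 and TCC-SUP stays below 4 CPM with and without drug.

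HSPA1A and HSPA1B, 2 neighboring genes on chromosome 6 (31815464 to 31817946 and 31827735 to 31830255, GRCh38) that encode nearly the same inducible HSP70, differed in the place of T24, which was highest for HSPA1A and lowest for HSPA1B. CLS-439, 5637 and TCC-SUP came in this order in both. HSPA1A was at 40.1 ± 2.14 CPM in T24 and 28.2 ± 4.12 CPM in CLS-439, which did not differ by the test (edgeR adjusted p = 0.0772). It was at 2.07 ± 0.640 CPM in 5637 and 1.51 ± 0.361 CPM in TCC-SUP, and the step from CLS-439 to 5637 was called (log2 difference of 5637 minus CLS-439 -3.77, adjusted p = 4.53e-11). HSPA1B was highest in CLS-439 at 59.0 ± 5.56 CPM and lowest in T24 at 33.6 ± 2.39 CPM, with 53.3 ± 5.59 in 5637 and 47.6 ± 4.79 in TCC-SUP. No neighbors in that order differed by the test, although T24 lay below 5637 (log2 difference -0.67, adjusted p = 0.0278). That call was lost without CLS-439 (adjusted p = 0.0587) and without library 3 or 4 of untreated T24 or of untreated 5637 (adjusted p from 0.0577 to 0.0804).

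The copies share much sequence, which limits what each count can say. Of the distinct 75-base stretches of HSPA1A transcripts, 69.3% also occur in HSPA1B, and 70.1% of those of HSPA1B occur in HSPA1A. How reads that match both were counted is not given in the sources used here. HSPA1B also shares 36.5% of its exon bases with another gene on the same strand, AL671762.1. HSPA1A took 52.4% to 63.5% of the reads of the 2 genes in T24, 28.9% to 38.2% in CLS-439, 2.5% to 4.5% in 5637 and 2.51% to 3.57% in TCC-SUP, with and without drug, and these ranges of the lines did not overlap except those of 5637 and TCC-SUP. Summed over both genes, untreated cells had 73.7 ± 3.85 CPM in T24, 55.4 ± 5.72 in 5637, 87.2 ± 3.02 in CLS-439 and 49.1 ± 5.12 in TCC-SUP. On the sum the difference of T24 from 5637 was 0.41 on the log2 scale (SE 0.25, adjusted p = 0.199), opposite in sign to that of HSPA1B alone, while the sum in CLS-439 was above that in 5637 (log2 difference of 5637 minus CLS-439 -0.65, adjusted p = 0.0239) and in TCC-SUP (-0.83, adjusted p = 0.00508).

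HSPD1 and HSPE1 encode the mitochondrial chaperonin HSP60 and its lid HSP10. They lie on opposite strands of chromosome 2 (197486581 to 197516737, minus strand, and 197499994 to 197503457, plus strand), with HSPE1 inside the annotated span of HSPD1. Both had the order CLS-439, 5637, T24, TCC-SUP. HSPD1 was at 1200 ± 37.7, 1123 ± 80.7, 747 ± 144 and 247 ± 36.2 CPM, and only the first step was not called (adjusted p = 0.599). HSPE1 was at 210.0 ± 15.8, 123 ± 10.2, 52.0 ± 2.61 and 30.1 ± 1.06 CPM, with every step called (adjusted p from 1.29e-06 to 0.000384). The 2 genes overlap on opposite strands by 281 exon bases, 14.2% of those of HSPE1, and 18% of the 75-base stretches of HSPE1 occur in another gene.

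The remaining members fell into simpler orders. HSPB1, the small heat shock protein HSP27 (chromosome 7, 76302544 to 76304295), split the lines in 2, with 314 ± 73.1 CPM in CLS-439 and 297 ± 47.9 in TCC-SUP above 124 ± 9.31 in T24 and 103 ± 8.56 in 5637 (adjusted p = 0.000166 for the middle step, no call for the others). HSPH1, an HSP110 that acts as a nucleotide exchange factor of HSP70 (chromosome 13, 31134974 to 31162388), stood highest in 5637 at 626 ± 43.2 CPM, above T24 at 344 ± 70.03 (adjusted p = 0.0161), and T24, TCC-SUP (255 ± 36.8) and CLS-439 (243 ± 7.83) did not differ step by step. That first step was not called when untreated T24 library 1 or 3 or untreated 5637 library 3 was left out (adjusted p 0.0811, 0.0594 and 0.0528). DNAJB1, the J-domain partner of inducible HSP70 (chromosome 19, 14514770 to 14529770), ran from 177 ± 16.8 CPM in 5637 through 158 ± 3.50 in T24 and 144 ± 4.39 in TCC-SUP to 118 ± 7.60 in CLS-439, where only the last step was called (adjusted p = 0.02, and 0.095 without untreated CLS-439 library 4). BAG3, a cochaperone that releases clients from HSP70 and links it to autophagy (chromosome 10, 119651370 to 119677819), ran from 128 ± 7.17 CPM in TCC-SUP to 92.4 ± 2.52 in 5637, and no step was called. Its ends differed (log2 difference of 5637 minus TCC-SUP -0.47, adjusted p = 0.0369), a call lost without any 1 of the untreated 5637 libraries or untreated TCC-SUP library 3 or 4 (adjusted p from 0.0524 to 0.0848).

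In CLS-439 a share of the reads of 5 members was counted on pseudogenes named after them. It was 13.998% to 15.4% for HSPA8 (17 pseudogenes), 8.76% to 11.5% for DNAJB1 (1), 27.2% to 32.6% for HSPB1 (2), 23.3% to 24.4% for HSPD1 (17) and 20.9% to 29.5% for HSPE1 (26). In the other lines the highest such shares were 0.185%, 0.025%, 0.949%, 2.44% and 2.57%. With gene and pseudogene reads summed, HSPA8 and DNAJB1 of TCC-SUP no longer lay above those of CLS-439 (log2 differences 0.20 and 0.15, adjusted p 0.285 and 0.215), while HSPB1 of TCC-SUP (-0.57, adjusted p = 0.0399) and HSPD1 of 5637 (-0.48, adjusted p = 0.00894) now lay below. For HSP90AA1, whose 4 related pseudogenes carry other symbols (such as HSP90AA2P) and which were looked up later, with the other results known, the share was 10.3% to 11.9% in CLS-439 and at most 0.274% in the other lines. With these summed, HSP90AA1 in CLS-439 lay above that in TCC-SUP (log2 difference of TCC-SUP minus CLS-439 -0.63, adjusted p = 0.0204), and its place below 5637 held (0.60 for 5637 minus CLS-439, adjusted p = 0.0283). What sets the CLS-439 reads apart was not tested, nor how well they match the human reference. Every level of this line, and every difference from it, is to be read with that limit and these shares.

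**Figure D2:**
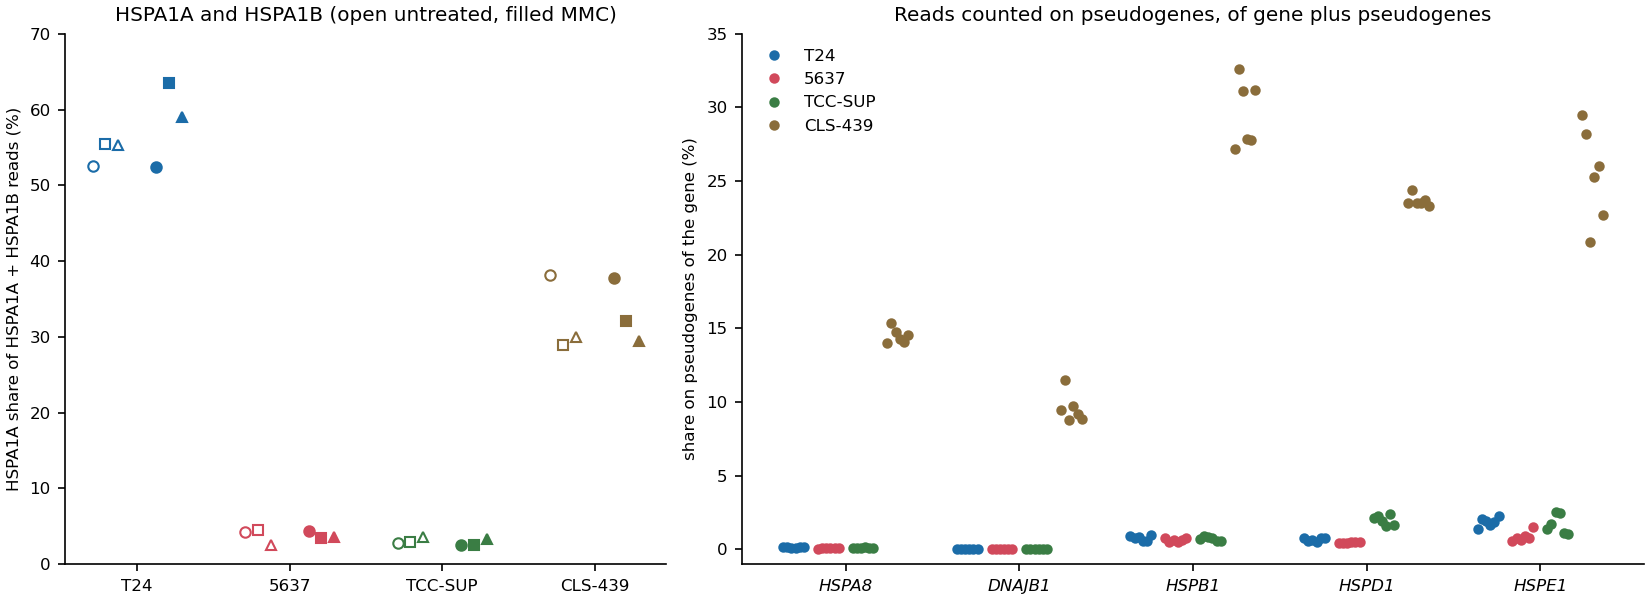
Left, the share (%) of reads of HSPA1A among those of HSPA1A and HSPA1B in each library (circle, square and triangle for libraries 1, 3 and 4, open untreated and filled MMC). Right, the share (%) of reads counted on pseudogenes among those of the gene and its pseudogenes, for the 5 genes with pseudogenes named after them, with 1 point per library; CLS-439 lies between 8.76% and 32.6% and the other lines at or below 2.57%.

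After MMC the members did not move as a group. In T24, 4 of 10 genes fell (HSPA8, HSPD1, HSP90AA1 and HSPE1), against 13.4% of all genes called lower. In 5637, 2 of 10 fell (HSPA8 and HSPD1), against 13.6%. This fit leaves out any pairing by library number. A replicate block was fitted in every line, also in T24 and TCC-SUP, where same-numbered libraries did not correlate throughout. With the block 4 members fell in 5637, HSP90AA1 and HSPE1 among them (background 15.5%), and HSPA8 fell in TCC-SUP (background 12.9%). Without the block no member was called lower in TCC-SUP or CLS-439 (edgeR, backgrounds 11.1% and 0.322%), where 2 and 1 had an unadjusted p under 0.05 and DESeq2 called 0. No member was called higher in any line by edgeR, where the backgrounds were 15.2% in T24, 15.9% in 5637, 0.298% in CLS-439 and 9.57% in TCC-SUP. Higher members with an unadjusted p under 0.05 numbered 0, 1, 0 and 2 in these lines, and DESeq2 called 0, 1, 0 and 1. The median log2 fold change of the 10 genes was -0.27 in T24, 0.10 in 5637, -0.02 in CLS-439 and 0.22 in TCC-SUP, and that of all genes tested was 0 in every line. In bulk RNA, fewer cells with a transcript and less of it per cell cannot be told apart.

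**Figure D3:**
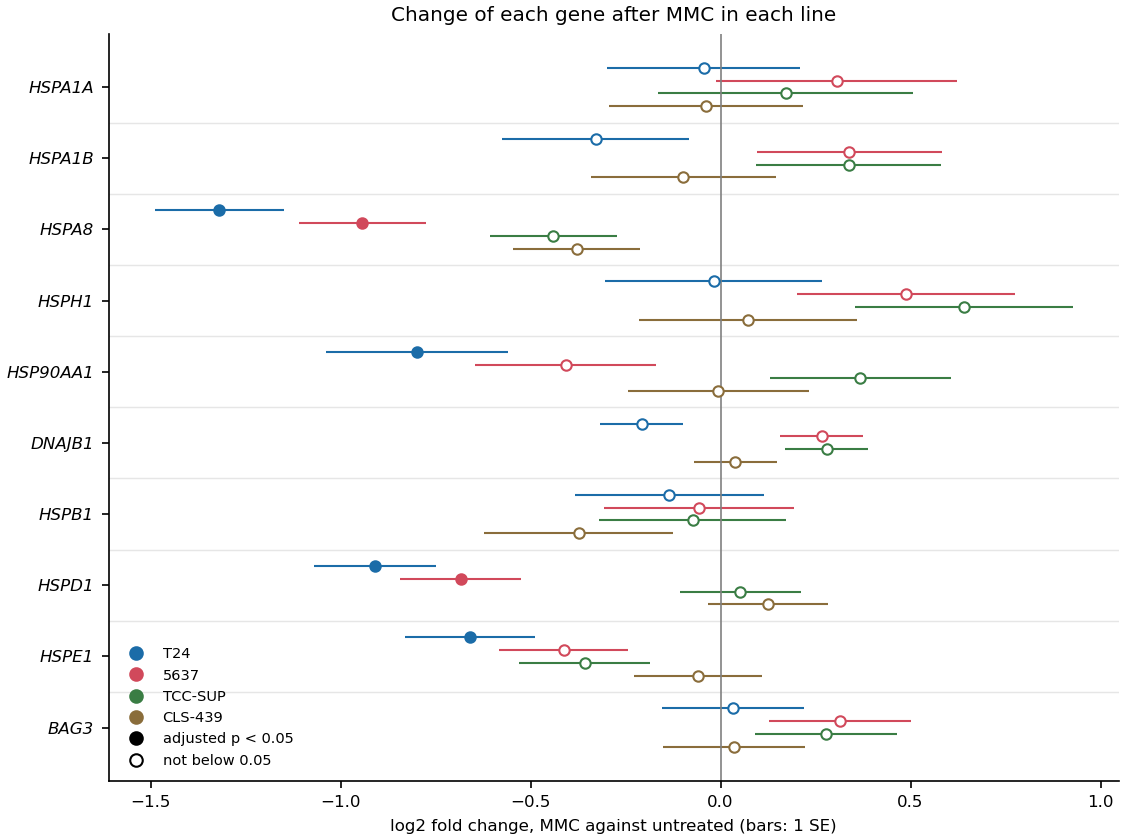
Log2 fold change of each gene after MMC in the 4 lines, from edgeR on all 24 libraries, with bars of 1 SE and filled points for an adjusted p under 0.05. The 6 filled points, HSPA8 and HSPD1 in T24 and 5637 and HSP90AA1 and HSPE1 in T24, all lie below 0.

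HSPA8, on chromosome 11 (123057489 to 123063230), fell most. Its libraries 1, 3 and 4 were at 3233, 3813 and 4411 CPM in untreated T24 and at 1064, 1724 and 1799 CPM after MMC. In 5637 they were at 3295, 3615 and 3080 CPM untreated and at 1524, 1890 and 1782 CPM treated. No treated library of either line reached the lowest untreated one. The log2 fold change was -1.32 (SE 0.17, adjusted p = 3.47e-06) in T24, to 40% of the untreated level, and -0.94 (SE 0.17, adjusted p = 0.000151) in 5637, to 52%. Both calls held in 35 of 35 alternatives. In TCC-SUP the libraries were at 2145, 3155 and 2764 CPM untreated and at 2055, 1634 and 2254 CPM treated, so that the groups overlapped, and the log2 fold change of -0.44 (SE 0.17, 95% interval -0.79 to -0.10) was not called (adjusted p = 0.0637). In CLS-439 all treated libraries (1526, 1556 and 1553 CPM) lay below all untreated ones (1904, 2031 and 2094 CPM), without a call (log2 fold change -0.38, SE 0.17, adjusted p = 0.567). Fitted without the other lines, CLS-439 gave a call for HSPA8 (adjusted p = 0.0195), and in TCC-SUP the call was gained with the replicate block (adjusted p = 0.0304), without the filter (0.00517), and without untreated TCC-SUP library 1 (0.0306) or treated T24 library 1 (0.0174).

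The stress-induced HSP70 genes did not follow HSPA8. HSPA1B was at 47.0, 57.4 and 55.6 CPM in untreated 5637 and at 31.0, 97.0 and 74.3 CPM in treated libraries 1, 3 and 4, so the lowest and the 2 highest values all came from treated cells. Its log2 fold change was 0.34 (SE 0.24, adjusted p = 0.328) in 5637, 0.34 (SE 0.24, adjusted p = 0.368) in TCC-SUP, -0.33 (SE 0.25, adjusted p = 0.361) in T24 and -0.10 (SE 0.24) in CLS-439. In T24 all treated libraries (21.7, 28.8 and 29.6 CPM) lay below all untreated ones (35.6, 34.1 and 30.9 CPM). HSPA1A gave log2 fold changes of -0.05 (SE 0.25) in T24, 0.30 (SE 0.32) in 5637, -0.04 (SE 0.26) in CLS-439 and 0.17 (SE 0.34) in TCC-SUP, with overlapping groups in each. The sum of both genes gave -0.17, 0.34, -0.08 and 0.33, also without a call (adjusted p from 0.355 to 1).

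Of the factors that work on HSP70, HSPH1 had its largest change in TCC-SUP, from 236, 297 and 232 CPM untreated to 278, 414 and 500 CPM treated. Treated library 1 lay among the untreated ones, and the log2 fold change of 0.64 (SE 0.29, 95% interval 0.04 to 1.23) was not called (adjusted p = 0.122). In 5637 HSPH1 went from 592, 674 and 611 CPM to 545, 1165 and 922 CPM, where treated library 1 was the lowest of all 6 (log2 fold change 0.49, SE 0.29, adjusted p = 0.218). In T24 the treated libraries spread from 156 to 504 CPM around the untreated 289 to 422 CPM, and the change was -0.02 (SE 0.29). BAG3 showed a like spread, with 73.7, 143 and 129 CPM in treated 5637 against 89.6 to 94.5 CPM untreated (log2 fold change 0.32, SE 0.19, adjusted p = 0.221), and with 124, 195 and 145 CPM in treated TCC-SUP against 120 to 135 CPM (0.28, SE 0.19, adjusted p = 0.324). In T24 and CLS-439 the log2 fold changes of BAG3 were 0.03 and 0.04.

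DNAJB1 had small changes with tight replicates. In T24 all treated libraries (137, 136 and 137 CPM) lay below the untreated ones (156, 162 and 157 CPM). In 5637 the treated libraries (200, 235 and 204 CPM) and in TCC-SUP those at 153, 194 and 177 CPM lay above the untreated ones (195, 174 and 162 CPM, and 139, 144 and 148 CPM). The groups therefore did not overlap in 3 lines, in opposite directions, yet no change passed the threshold: the log2 fold changes were -0.21 (SE 0.11, adjusted p = 0.173) in T24, 0.27 (SE 0.11, adjusted p = 0.0717) in 5637 and 0.28 (SE 0.11, adjusted p = 0.0753) in TCC-SUP. Nor did the difference of the response in T24 from that in 5637 (-0.47, SE 0.16, adjusted p = 0.0929) or in TCC-SUP (-0.49, SE 0.16, adjusted p = 0.082), although DESeq2 called both (adjusted p 0.0179 and 0.0185) and the rises in 5637 and TCC-SUP (0.0231 and 0.0323). In CLS-439 the change was 0.04 (SE 0.11).

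HSP90AA1, on chromosome 14 (102080738 to 102139699), fell in T24 from 2856, 3915 and 5413 CPM to 1236, 3115 and 2651 CPM, by 0.80 on the log2 scale (SE 0.24, adjusted p = 0.0145). The groups overlapped, since treated library 3 exceeded untreated library 1. The call was lost when treated T24 library 1 (-0.49, adjusted p = 0.0602) or untreated T24 library 4 (-0.53, adjusted p = 0.142) was left out, and when T24 was fitted alone (adjusted p = 0.165). In 5637 all treated libraries (2097, 3243 and 2932 CPM) lay below all untreated ones (3398, 4176 and 3404 CPM) without a call (-0.41, SE 0.24, adjusted p = 0.216), while with the replicate block the change was called (-0.43, adjusted p = 0.0241). TCC-SUP had a positive value, from 1297, 1730 and 1666 CPM to 1717, 2057 and 2284 CPM (0.37, SE 0.24, adjusted p = 0.305), and CLS-439 was at -0.01 (SE 0.24).

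Of the mitochondrial chaperonin genes, HSPD1 fell in T24 from 613, 729 and 898 CPM to 327, 444 and 421 CPM (log2 fold change -0.91, SE 0.16, adjusted p = 0.000142). In 5637 it fell from 1066, 1215 and 1088 CPM to 624, 820 and 653 CPM (-0.68, SE 0.16, adjusted p = 0.00202). Treated and untreated libraries did not overlap in either line, and the calls held in 35 of 35 and 34 of 35 alternatives. In TCC-SUP, where the gene was lowest, it went from 208, 279 and 255 CPM to 237, 213 and 319 CPM (0.05, SE 0.16, 95% interval -0.28 to 0.38), and in CLS-439 from 1233, 1210 and 1159 CPM to 1395, 1341 and 1189 CPM (0.12, SE 0.16, 95% interval -0.20 to 0.45). HSPE1 fell in T24 from 48.9, 53.5 and 53.4 CPM to 41.6, 29.3 and 27.9 CPM (-0.66, SE 0.17, adjusted p = 0.00514), a call lost without the libraries numbered 3 or 4 of all groups (adjusted p 0.103 and 0.102). In 5637 treated library 1 (122 CPM) lay among the untreated ones (115, 134 and 118 CPM) and libraries 3 and 4 (89.2 and 65.1 CPM) below them, and the change of -0.41 (SE 0.17, adjusted p = 0.0672) was called with the replicate block (-0.46, adjusted p = 0.0477) and without treated library 1 of 5637 (-0.71, adjusted p = 0.00119). In TCC-SUP the treated libraries (23.9, 20.1 and 26.3 CPM) lay below the untreated ones (29.5, 31.3 and 29.4 CPM) without a call (-0.36, SE 0.17, adjusted p = 0.15). In CLS-439 HSPE1 was at -0.06 (SE 0.17).

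HSPB1 did not change by the test in any line. Its log2 fold changes ran from -0.37 (SE 0.25, adjusted p = 0.842) in CLS-439, where treated library 1 was at 130 CPM and the 5 others at 260 to 397 CPM, to -0.06 (SE 0.25) in 5637. Its 95% intervals were -0.65 to 0.38 in T24, -0.57 to 0.46 in 5637, -0.89 to 0.14 in CLS-439 and -0.58 to 0.44 in TCC-SUP.

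Treated library 1 had the lowest treated value of 7 of the 10 genes in T24, 8 in 5637, 4 in CLS-439 and 5 in TCC-SUP. The same share over all genes was not tabulated, so nothing is read from these counts about the members. Without treated library 1 of T24, 5637 and TCC-SUP, 3 members rose in 5637 (background then 19.5%), HSPA1B by 0.65 (SE 0.15, adjusted p = 0.00133), HSPH1 by 0.70 (SE 0.16, adjusted p = 0.00073) and BAG3 by 0.52 (SE 0.14, adjusted p = 0.00507). In TCC-SUP 5 members rose (background 15%), HSPH1 by 0.83, HSP90AA1 by 0.46, HSPA1B by 0.41, BAG3 by 0.40 and DNAJB1 by 0.35, with adjusted p from 0.000176 to 0.0456. No member was called higher in T24 (edgeR, background 18.8%). Falls were called for HSPA8, HSPD1, HSP90AA1 and HSPE1 in T24 (background 18.2%), for HSPA8, HSPD1 and HSPE1 in 5637 (19.6%) and for HSPA8 (-0.48) and HSPE1 (-0.39) in TCC-SUP (17.4%). More genes of every kind were called in this fit, so the counts of members are to be read against these higher backgrounds. Several calls needed the libraries of all 3 lines left out together. With only treated TCC-SUP library 1 left out, HSPH1 (adjusted p = 0.0467) and DNAJB1 (0.0267) were called higher in TCC-SUP (background 10.7%). There HSP90AA1, HSPA1B, BAG3, HSPA8 and HSPE1 then had no call. Without treated 5637 library 1 alone, HSPH1 had no call in 5637, nor HSP90AA1 in T24 without treated T24 library 1 alone. Whether library 1 differs by its handling or by the cells was not tested.

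**Figure D4:**
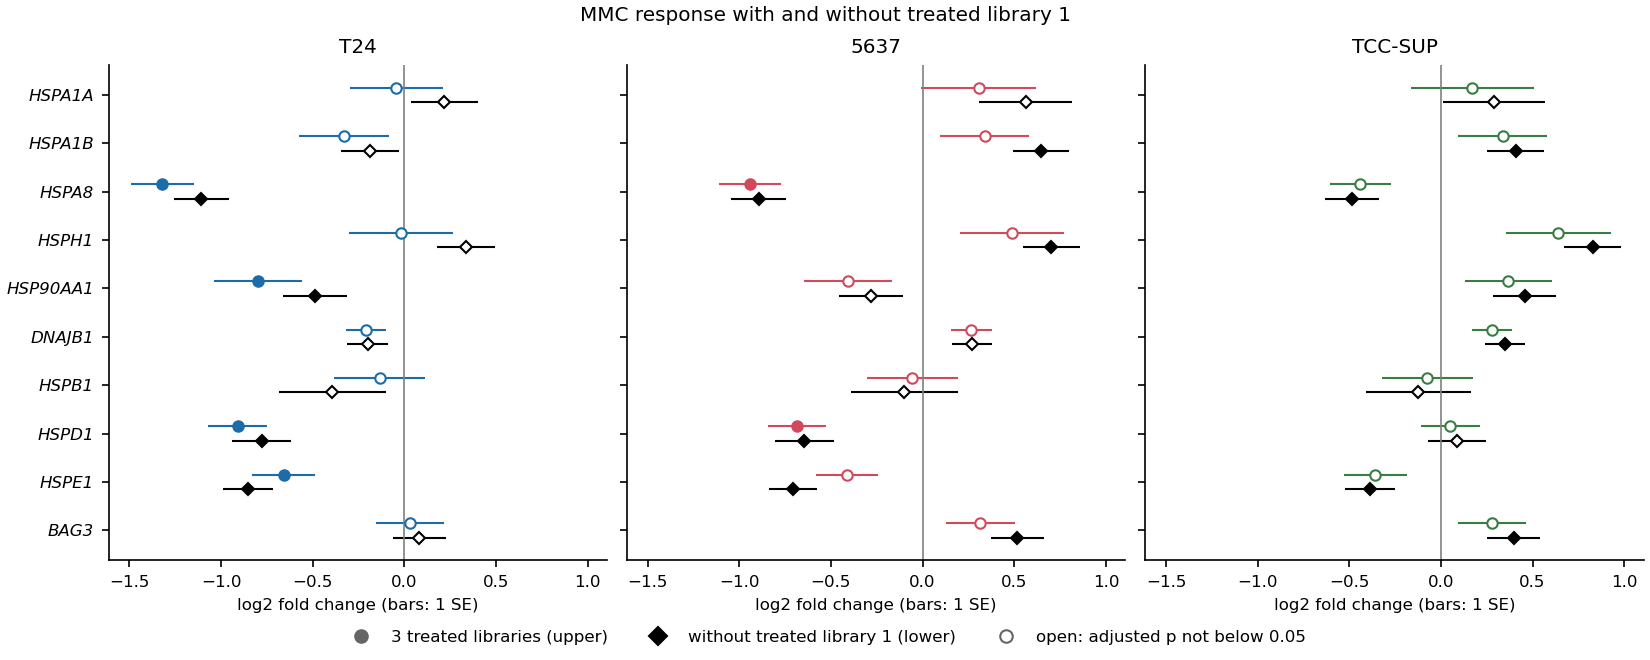
Log2 fold change of each gene after MMC in T24, 5637 and TCC-SUP with all 3 treated libraries (colored circles) and without treated library 1 of these lines (black diamonds), with bars of 1 SE and filled symbols for an adjusted p under 0.05. HSPA8 is filled as both symbols in T24 and 5637, and HSPH1, HSPA1B and BAG3 are filled only as diamonds, in 5637 and TCC-SUP.

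The responses themselves were also compared between lines. A test over the 4 lines called HSPA8 (adjusted p = 0.0167) and HSPD1 (adjusted p = 0.00333), 2 of 10 against a background of 16%. Over T24, 5637 and TCC-SUP it called HSPD1 alone (adjusted p = 0.0182, background 6.86%), with HSPA8 at an adjusted p = 0.0549. By pairs, the response of HSPD1 was lower in T24 than in TCC-SUP by 0.96 on the log2 scale (SE 0.22, adjusted p = 0.0154), lower than in CLS-439 by 1.03 (adjusted p = 0.00442), and lower in 5637 than in CLS-439 by 0.81 (adjusted p = 0.0234). That of HSPA8 was lower in T24 than in TCC-SUP by 0.88 (SE 0.24, adjusted p = 0.0356) and than in CLS-439 by 0.94 (adjusted p = 0.0121). Leaving out single libraries of these lines ended the call of HSPD1 between T24 and TCC-SUP for 3 of them (untreated T24 library 4, untreated TCC-SUP library 1 and treated TCC-SUP library 4, adjusted p from 0.0571 to 0.0705) and between 5637 and CLS-439 for 4 (untreated 5637 library 3, treated 5637 library 4, treated CLS-439 library 1 and untreated CLS-439 library 4, adjusted p from 0.0563 to 0.0677). That of HSPA8 between T24 and CLS-439 was lost without untreated T24 library 4 (0.054). The call of HSPA8 between T24 and TCC-SUP was the least stable: it was lost without any 1 of 7 libraries of these lines (treated library 1 and untreated libraries 3 and 4 of T24, and libraries 1 and 4 of TCC-SUP, untreated and treated, adjusted p from 0.0509 to 0.131) and without CLS-439 (0.0904). The calls above number 2 of 10 for T24 and TCC-SUP (background 3.79%), 2 for T24 and CLS-439 (10.1%) and 1 for 5637 and CLS-439 (9.02%). For T24 and 5637 (3.47%), 5637 and TCC-SUP (2.7%) and TCC-SUP and CLS-439 (2.65%) edgeR called 0, with 1, 3 and 0 at an unadjusted p under 0.05 and 1, 1 and 0 called by DESeq2. The pairs share lines and are not independent. HSP90AA1 had the largest difference of response, T24 minus TCC-SUP, at -1.17 (SE 0.34), which was not called (adjusted p = 0.054). It was called with the replicate block (-1.23, adjusted p = 0.00116), without the filter (1.94e-08), by DESeq2 (0.0254) and without treated library 1 of the 3 lines (-0.94, 0.0173). The block also called HSP90AA1 for T24 minus CLS-439 (-0.85, adjusted p = 0.00925, against 0.146 without the block) and for 5637 minus TCC-SUP (-0.80, 0.0287, against 0.261). Without treated library 1 of the 3 lines, the difference of HSPA8 between T24 and TCC-SUP was -0.62 (adjusted p = 0.0583).

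Across the 18 libraries of T24, 5637 and TCC-SUP, with each line centered on its own mean of log2 CPM, HSPA8 and HSPD1 had a Pearson r of 0.94 and HSP90AA1 and HSPD1 of 0.84, while HSPA1B and BAG3 had 0.86 and HSPA1A and HSPH1 0.78. HSPA8 and BAG3 had -0.25, and HSPE1 and BAG3 -0.62. Among 10091 genes at 10 CPM or more, those most like HSPA8 were SYNCRIP (0.97), DHX9 (0.97) and KNSTRN (0.96). Most like HSPD1 were CUL4A (0.97), SET (0.96) and WDR12 (0.95), most like HSPH1 were CEBPZ (0.97), RECQL (0.97) and NIPA2 (0.96), and most like BAG3 were PLPP5 (0.94), C7orf26 (0.93) and SPG7 (0.91). The points share the libraries, the treatment and library 1, and these values are a description.

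Other genes of the pathway were followed through 8 lists with 84 genes, of which 82 were tested. In T24, 10 rose and 15 fell, where 15.2% and 13.4% of all genes did. In 5637 16 rose and 8 fell (15.9% and 13.6% of all genes), and in TCC-SUP 15 rose and 3 fell (9.57% and 11.1%). In CLS-439 edgeR and DESeq2 called 0, with 8 at an unadjusted p under 0.05. Without treated library 1 of the 3 lines 19 rose and 19 fell in T24 (18.8% and 18.2% of all genes), 19 and 16 in 5637 (19.5% and 19.6%) and 27 and 8 in TCC-SUP (15% and 17.4%), and CLS-439 had 1 lower (1.54%). The counts of single lists that follow are small, are to be read against these shares and were not tested as groups. Among heat shock factors, HSF1, the main one, had log2 fold changes of 0.24, -0.14, 0.08 and -0.05 in T24, 5637, TCC-SUP and CLS-439, none called. HSF2 rose by 0.61 in 5637 (SE 0.21, adjusted p = 0.0351) and by 0.61 in TCC-SUP (SE 0.22, adjusted p = 0.0465), from 20.1 to 30.6 and from 15.0 to 22.9 CPM, and was at 0.05 in T24 and 0.12 in CLS-439. HSBP1, a small protein that binds HSF1, fell by 0.34 on the log2 scale in T24 (adjusted p = 0.0257).

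The cytosolic chaperonin and its helper prefoldin, which fold actin and tubulin, fell in part. Of 14 genes, 6 fell in T24 (median log2 fold change -0.32, with 13.4% of all genes lower) and 4 in 5637 (median -0.25, with 13.6%), and none was called in TCC-SUP or CLS-439 by edgeR or DESeq2, with 1 and 0 at an unadjusted p under 0.05. The largest falls were of the prefoldin subunit PFDN4 in T24 (from 70.7 to 25.9 CPM, -1.45, SE 0.23, adjusted p = 3.74e-05), of the chaperonin subunits CCT2 (-0.66) and CCT6A (-0.64) there, and of PFDN6 (-0.76), CCT5 (-0.50) and CCT3 (-0.46) in 5637. Of 16 other HSP90 and cochaperone genes, 5 fell and 1 rose in T24, 4 fell and 1 rose in 5637, and 3 rose in TCC-SUP. PTGES3, which encodes the HSP90 cochaperone p23, fell in T24 from 399 to 145 CPM (-1.46, SE 0.16, adjusted p = 4.75e-07), and HSP90AB1, the HSP90 made without stress, fell by 0.52 in T24 (adjusted p = 0.00175) and by 0.63 in 5637 (adjusted p = 0.000259) on the log2 scale. The immunophilin FKBP5 rose in T24 (0.57), 5637 (1.01) and TCC-SUP (0.65).

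Of 9 other HSP70 and HSP110 genes tested, 2 rose and 1 fell in T24, 5 rose in 5637 and 4 in TCC-SUP. HSPA14, which works at the ribosome, rose in T24 from 26.5 to 73.2 CPM (1.47, SE 0.14, adjusted p = 5.58e-08), in 5637 by 0.92 (adjusted p = 2.42e-05) and in TCC-SUP by 0.86 (adjusted p = 0.000167). HSPA4, an HSP110, fell in T24 (-0.64, SE 0.14), where the mitochondrial HSP70 gene HSPA9 rose (0.53, SE 0.14), unlike HSPD1 and HSPE1. The strictly heat-induced HSPA6 stayed below 7 CPM on average but was called higher in 5637 (from 1.64 to 6.59 CPM, 2.01, SE 0.41, adjusted p = 0.000609) and TCC-SUP (from 0.615 to 2.11 CPM, 1.77, SE 0.48, adjusted p = 0.00953).

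Of 17 other J-domain genes, 3 rose and 1 fell in T24, 5 rose in 5637, and 2 rose and 2 fell in TCC-SUP. DNAJA4 rose in T24 (from 51.1 to 107 CPM, 1.06, SE 0.20) and 5637 (from 75.8 to 173 CPM, 1.19, SE 0.20), and DNAJB5 (1.31, SE 0.17) and DNAJB4 (1.26, SE 0.22) rose in 5637. In TCC-SUP the genes called higher were DNAJC9 (0.61, SE 0.20) and DNAJA4 (0.67, SE 0.23, from 4.62 to 7.33 CPM). Of 8 other nucleotide exchange factors, 3 rose and 1 fell in T24, 1 rose in 5637 and 4 in TCC-SUP. GRPEL2, an exchange factor of mitochondrial HSP70, rose in T24 (0.80, SE 0.21), 5637 (0.72, SE 0.20) and TCC-SUP (0.85, SE 0.21), and BAG1 rose in T24 (0.73) and TCC-SUP (0.64). Of 6 small heat shock protein genes tested, HSPB11 (0.71) and HSPB8 rose in 5637 and HSPB8, the partner of BAG3, in TCC-SUP from 16.1 to 40.5 CPM (1.33, SE 0.27, adjusted p = 0.00139), while in 5637 HSPB8 stayed below 0.5 CPM. Of 8 mitochondrial protease and disaggregase genes, HTRA2 rose in T24 (0.41) and 5637 (0.49), and LONP1 fell in TCC-SUP (-0.72, SE 0.18).

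**Figure D5:**
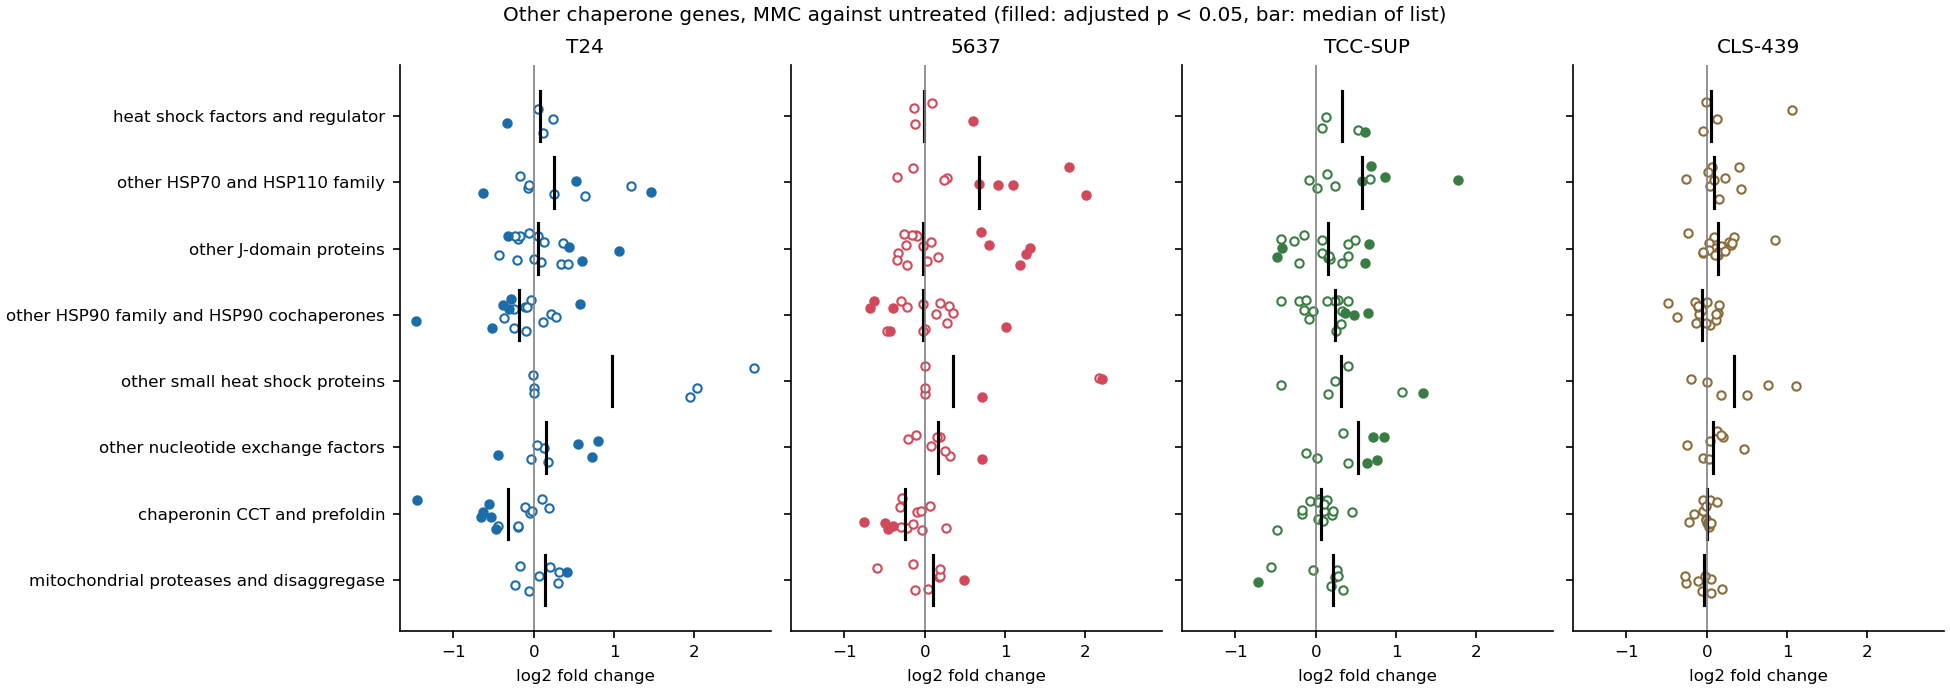
Log2 fold change after MMC of the 82 other chaperone genes tested, by list and line, with filled points for an adjusted p under 0.05, vertical spread within a list only to separate points, and black bars at the median of each list. All filled points of the chaperonin and prefoldin list lie below 0 in T24 and 5637, and CLS-439 has no filled point.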

How the data were processed

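Messenger RNA of 24 libraries was sequenced with a stranded kit, per the labels' protocols. The deposited file gives raw counts, by Ensembl gene and library, with no normalization applied. Tools in the submitters' processing notes are STAR 2.5.3a and featureCounts 1.6.2, with build GRCh38. The strand setting, the annotation used and the handling of reads with several matches are not given in these notes. GENCODE 29 supplied symbols, coordinates and exon lengths for 58216 of the 58381 IDs, and the others hold 0.0072% of the reads.

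With edgeR 4.0.16 (R 4.3.3, limma 3.58.1), genes were filtered by filterByExpr with the group (20820 kept, with 99.94% of reads), scaled by TMM and fitted with a robust quasi-likelihood model of 8 group means (16 residual degrees of freedom). Adjusted p values are Benjamini-Hochberg values over all genes tested and are called under 0.05. CPM and RPKM use TMM library sizes, and errors of levels are SDs over 3 libraries. Each library was counted as a separate sample because the labels call them biological replicates. No 2 libraries of a group came closer than a chi-square per gene of 4.10, a value that cannot show whether the cultures were independent. The scripts were tested on simulated data.

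The members and lists were chosen with earlier results of these data known. Besides the members, the naming rule took HSF1 and HSF2 in every line, up to 3 called genes per list and line with the largest changes at 10 CPM or more, and the 3 genes most like each of HSPA8, HSPH1, HSPD1 and BAG3. Genes under 10 CPM (HSPA6, DNAJA4 in TCC-SUP, HSPB8 in 5637) were added after their values were seen. Likeness used log2(CPM + 0.5).

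Pairing by library number was checked through the correlation of deviations from group means between same-numbered libraries. It exceeded 0.1 for each number in CLS-439 (0.42, 0.28 and 0.14) and in 5637 (0.28, 0.13 and 0.39), which was read as a sign of pairs, but not in T24 or TCC-SUP. The fit reported pairs libraries in no line, and the replicate block, an alternative, was fitted in every line. Alternatives were RLE scaling, no filter, lines left out or fitted alone, a replicate block, libraries left out, summed copies (also HSP90AA pseudogenes, added later), and DESeq2 1.42.0.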

Additional observations from a re-analysis of the deposited data

Results flagged for a closer look

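For 2 genes the response to MMC differed between lines by a test of the difference itself (edgeR, 3 libraries per group). The log2 difference of response for HSPA8 was -0.88 for T24 minus TCC-SUP and -0.94 for T24 minus CLS-439. For HSPD1 it was -0.96 for T24 minus TCC-SUP, -1.03 for T24 minus CLS-439 and -0.81 for 5637 minus CLS-439. The adjusted p values ran from 0.00442 to 0.0356. Of these, HSPA8 between T24 and TCC-SUP was lost most easily, also when any 1 of the untreated 5637 libraries, which are in neither line, was left out (adjusted p from 0.0517 to 0.055).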

How the results depend on the processing

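Of the single response values under the alternatives, 1355 stayed on their side of the threshold, 40 passed it and 7 no longer did. For differences of response these counts were 1958, 41 and 29, and for untreated differences 1889, 28 and 50. Values with no call either way changed sign 38 times among responses (8 of them HSPH1 in T24) and 102 times among differences of response. Over all alternatives the log2 fold change of HSPH1 in T24, -0.02 as reported, ran from -0.48 to 0.34. Among untreated differences 9 changed sign, 1 of them called: T24 minus 5637 for HSPA1B, -0.67, became 0.41 when HSPA1A and HSPA1B were summed. Where a count of called members moved, the cause was not tested.

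The shares of all genes tested stand in brackets beside counts of members higher or lower. They were not tabulated for differences of response, so those counts have no background here. Without the filter on low counts, members called were 1 higher in 5637 (8.23%), and 2 higher and 1 lower in TCC-SUP (4.9% and 6.38%). Responses differed for 4 members among the 4 lines and for 3 among T24, 5637 and TCC-SUP, with 11 pairwise differences of response (5 as reported). DESeq2 gave 1 higher in 5637 (16.8%), 1 higher in TCC-SUP (10.5%), 4 differing among 4 lines, 4 among 3 lines and 9 pairwise differences. Lines fitted alone gave 1 higher in TCC-SUP (11.8%) and 1 lower in CLS-439 (2.35%), and without CLS-439 the responses of 0 members differed among the other lines. Without treated library 1 of T24, 5637 and TCC-SUP the counts were 3 higher in 5637 (19.5%), and 5 higher and 2 lower in TCC-SUP (15% and 17.4%). Then 7 differed among 4 lines, 4 among 3 lines and 13 pairwise. With the replicate block, 4 members were lower in 5637 (15.5%) and 1 in TCC-SUP (HSPA8, -0.43, with 12.9% of all genes), 3 differed among 3 lines and 9 pairwise differences were called. Of 100 member results, the block left 93 on their side and 7 passed the threshold.

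Over the fits that leave out replicates or single libraries, members lower in T24 numbered 2 to 4, in 5637 1 to 3 and in TCC-SUP 0 to 1, members higher in 5637 0 to 4 and in TCC-SUP 0 to 2. Of all genes tested, the same fits called 3.59% to 17.2% lower in T24, 4.17% to 18.2% in 5637 and 0.824% to 16.1% in TCC-SUP. The shares called higher were 4.85% to 17.9% in 5637 and 0.477% to 13.4% in TCC-SUP. Responses differed among 4 lines for 0 to 5 members and among 3 lines for 0 to 3, pairwise differences of response numbered 0 to 10, untreated pairwise differences 27 to 42, and 8 to 10 members differed among untreated lines. For these counts the shares of all genes were not tabulated in the same fits. In the fit on all libraries, untreated levels differed for 93.3% of all genes among the 4 lines and for 46.6% to 77% by pairs. Nothing is read from these counts about the members. With 3 libraries per group, the standard error of a response was 0.11 for DNAJB1 and 0.29 for HSPH1 in T24, which sets the size of change that could be called.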
